A study of Arabidopsis thaliana with 12 samples.

Results

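The genes described here are those carried by the mitochondrial genome of Arabidopsis thaliana, taken as every gene whose identifier starts with ATMG. They number 161 of the 38093 genes in each of 3 deposited comparison tables. The groups were gun1-1, gun4-1 and gun5-1 seedlings and wild-type Col-0 seedlings, with 3 libraries per genotype. All groups, Col-0 included, were 5 days old and had grown on 5 µM norflurazon at a light level of 100 µE, so norflurazon is common to every value and no untreated group enters. Norflurazon blocks carotenoid synthesis and bleaches the plastids. GUN4 activates magnesium chelatase, GUN5 is the H subunit of that enzyme, and GUN1 is a pentatricopeptide repeat protein of the plastid. The gun mutants keep photosynthesis genes of the nucleus active when plastids are damaged. Each mutant was represented by 1 allele. The labels give whole seedlings as the source, although the design text speaks of leaf RNA, and library construction began with oligo(dT) selection. The tables hold 1 FPKM value per genotype (fragments per kilobase of transcript scaled to the number of mapped fragments) and the authors' Cuffdiff test against Col-0, with no value per library. In such bulk RNA, fewer cells of a type and less RNA per cell cannot be told apart.

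The plant mitochondrial genome encodes a minority of the subunits of respiratory complexes I, III, IV and V, the ribosomal RNAs and some proteins of the mitochondrial ribosome, a few cytochrome c maturation proteins, transfer RNAs and many open reading frames of unknown function. The remaining subunits, and nearly all of the transcription, splicing and RNA decay machinery, are encoded in the nucleus and imported. Poly(A) tails on plant mitochondrial RNA mark it for degradation and are not a stable feature of the mature message.

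The nuclear genome of Col-0 carries a large insertion of mitochondrial DNA on chromosome 2, so many mitochondrial genes exist in identical copies. The stretches of 60 bases shown here are read from RefSeq assembly TAIR10.1. They contrast a gene with an exact nuclear copy, atp9 (a subunit of the ATP synthase ring), with nad9 (a complex I subunit), whose closest nuclear stretch is short and imperfect. Capitals mark the start codon in the atp9 pair and the bases that differ in the nad9 pair.
atp9, mitochondrial genome MT:271126-271185, minus strand: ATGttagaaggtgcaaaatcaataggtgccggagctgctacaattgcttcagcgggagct
atp9 copy, chr2:3252021-3252080, minus strand: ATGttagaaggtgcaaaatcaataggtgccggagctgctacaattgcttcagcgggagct
nad9, mitochondrial genome MT:25126-25185, plus strand: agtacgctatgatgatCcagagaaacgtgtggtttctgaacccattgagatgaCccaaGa
nad9 alignment, chr3:16084707-16084766, minus strand: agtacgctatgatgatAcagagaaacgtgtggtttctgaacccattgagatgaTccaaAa
The atp9 copy matched over the whole coding sequence of 225 bases. The best nuclear alignment of nad9 covered 112 of its 573 bases, with 8 mismatches.

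Listed levels split along the same line. Of 85 members with a nuclear copy (at least 90% of the length at 99% identity or more), 1 reached 1 FPKM in any group and 62 were at 0 everywhere. Of 34 members without such a copy, 16 reached 1 FPKM and 9 were at 0 everywhere. Among the respiratory chain genes, 0 of 14 with a copy and 6 of 8 without a copy reached 1 FPKM, and the highest level with a copy was 0.643 FPKM. Among the open reading frames the counts were 1 of 58 with a copy and 5 of 20 without. The 1 open reading frame with a copy, ATMG01000, shares its span with nad3, which is among the 14. How the authors' software shared reads between identical copies is not given in the sources used here, and its part in these levels was not tested. A level near 0 for a gene with a nuclear copy is therefore a listed value, and the tables do not separate the mitochondrial from the nuclear transcript.

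**Figure D1:**
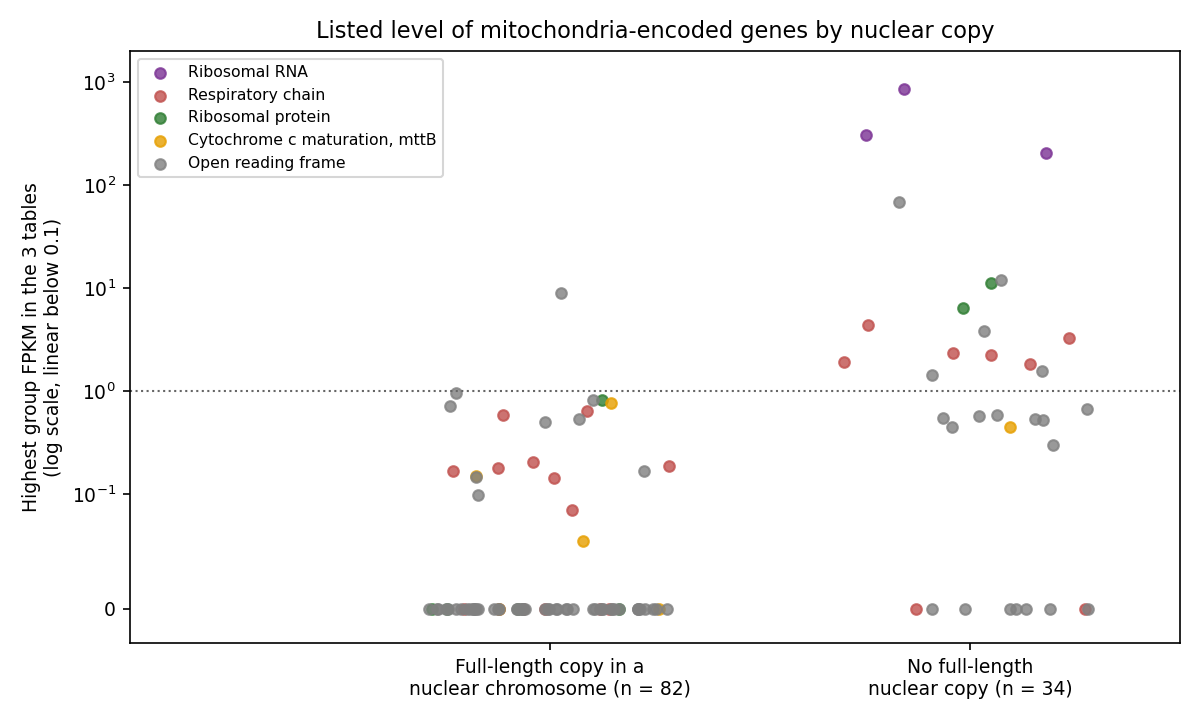
Highest group FPKM of each matched mitochondria-encoded gene over the 3 tables (log scale, linear below 0.1), for genes with a full-length nuclear copy on the left (n = 82) and without one on the right (n = 34). Each point is 1 gene, colours give its class, sideways scatter is for legibility, the dotted line marks 1 FPKM, and transfer RNAs and 3 spans shared between classes are not drawn. All points above 10 FPKM lie on the right.

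In all, 19 of the 161 members reached 1 FPKM in at least 1 group, 33 lay between 0 and 1 FPKM, and 109 were listed at 0 in every group of every table. The 19 were 3 of 3 ribosomal RNAs, 6 of 22 respiratory chain genes, 2 of 7 ribosomal protein genes, 6 of 78 open reading frames and 2 of 17 genes that could not be matched to a named feature. None of the 6 cytochrome c maturation and transport genes and none of the 25 transfer RNAs did. At the 1 FPKM boundary, ATMG00516, in a span shared by matR and nad1, reached 0.982 FPKM and ATMG01400 reached 1.10 FPKM. The Col-0 libraries are shared by the 3 tables. Relative to the gun1-1 table, the Col-0 values of the 34 members above 0 there were 1.07 to 1.08 times as high in the gun4-1 table and 0.982 to 0.986 times as high in the gun5-1 table.

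The 18S ribosomal RNA was called higher in gun1-1 and gun4-1 and the 26S ribosomal RNA in gun4-1 and gun5-1, while the only messages called, cox1 and ATMG00090, were higher in gun4-1. With a call defined as the authors' q under 0.05, the authors' deposited table called 1 of 11 tested members higher in gun1-1, where 18.8% of all tested genes were called higher and 33.7% were called in either direction. In gun4-1 seedlings 4 of 13 tested members were called higher in the authors' deposited table, against 8.21% of all tested genes called higher and 14.1% in either direction. In gun5-1 seedlings the authors' deposited table called 1 of 10 tested members higher, against 16.4% of all tested genes called higher and 29.5% in either direction. Calls in the lower direction were 0 in each of the 3 Cuffdiff comparisons, against 14.9%, 5.88% and 13.1% of all tested genes in gun1-1, gun4-1 and gun5-1. Of the tested members, 2 in gun1-1, 6 in gun4-1 and 2 in gun5-1 had an unadjusted p under 0.05 in either direction. The median log2 fold change of members with at least 1 FPKM in either group was 0.38 over 13 genes in gun1-1, 1.26 over 14 in gun4-1 and 0.11 over 11 in gun5-1, while the median of all genes filtered the same way lay between -0.02 and 0.00. Members that passed only through the mutant numbered 6, 6 and 3 in gun1-1, gun4-1 and gun5-1, and those that passed only through Col-0 numbered 2, 1 and 3. Restricted to members with at least 1 FPKM in both groups, the medians were 0.33 over 8 genes, 0.99 over 9 genes and 0.11 over 7 genes.

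**Figure D2:**
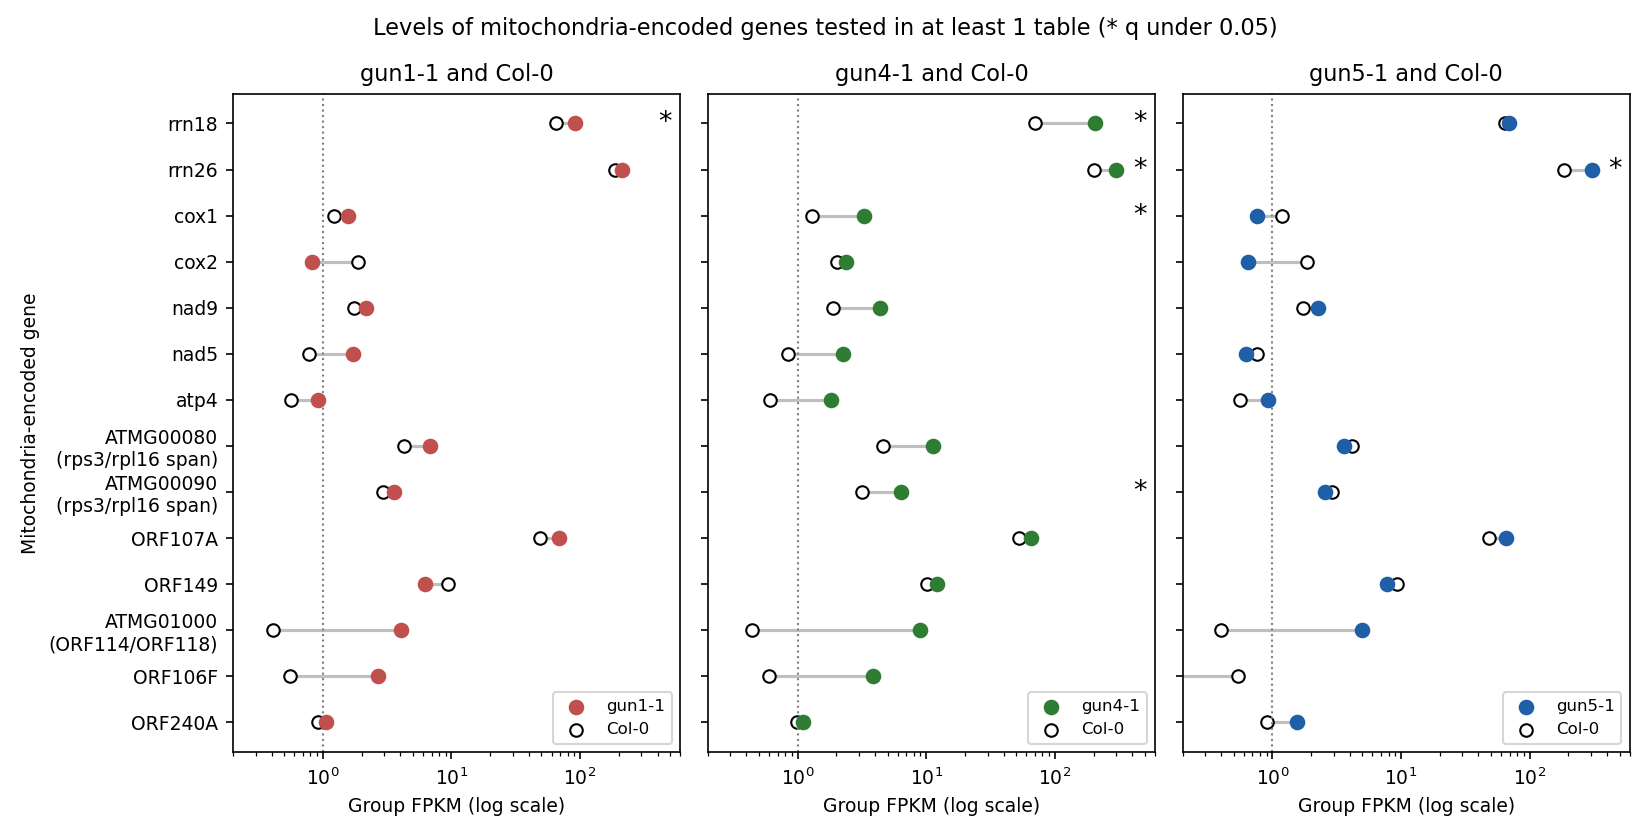
Group FPKM (log scale) of the 14 mitochondria-encoded genes that were tested in at least 1 table, with the mutant as a filled circle and Col-0 as an open circle. Asterisks mark q under 0.05 and dotted lines mark 1 FPKM, while ORF106F in gun5-1 is listed at 0 and falls off the axis. The 18S ribosomal RNA stood at 203 FPKM in gun4-1, against 70.2 FPKM in Col-0.

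The 18S ribosomal RNA (rrn18, ATMG01390, positions 361350 to 363284 of the mitochondrial sequence in the files' coordinates) is the RNA of the small mitochondrial ribosomal subunit. It stood at 91.4 FPKM in gun1-1, against 65.3 FPKM in Col-0. It stood at 203 FPKM in gun4-1, against 70.2 FPKM in Col-0. It stood at 69.1 FPKM in gun5-1, against 64.2 FPKM in Col-0. By listed level it was thus highest in gun4-1, intermediate in gun1-1 and nearly level with Col-0 in gun5-1. The difference of gun5-1 minus gun1-1 did not pass (-0.38, SE 0.24, q = 0.996, by the normal approximation described below). In the authors' deposited table the log2 fold change was 0.49 (SE 0.17, q = 0.000376) in gun1-1 and 1.54 (SE 0.18, q = 0.00103) in gun4-1, both called. In gun5-1 it was 0.11 (SE 0.18, q = 0.494) in the authors' deposited table, which was not called.

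The 26S ribosomal RNA of the large subunit (rrn26, ATMG00020, positions 8848 to 11415) was ordered otherwise by listed level. No difference between mutants passed for it in the contrasts given below. Its level was 213 FPKM in gun1-1 against 188 FPKM in Col-0, 297 FPKM in gun4-1 against 202 FPKM in Col-0, and 304 FPKM in gun5-1 against 185 FPKM in Col-0. The authors' deposited table called it higher in gun4-1, by 0.56 on the log2 scale (SE 0.18, q = 0.00103), and in gun5-1, by 0.72 (SE 0.17, q = 0.00042). In gun1-1 the log2 fold change of 0.18 in the authors' deposited table (SE 0.16, q = 0.158) was not called. The ratio of 26S to 18S FPKM, both per length, was 2.33 in gun1-1, 1.46 in gun4-1 and 4.39 in gun5-1, against 2.87 or 2.88 in Col-0 in each table. The mutants thus lay on both sides of Col-0, with 26S FPKM lower relative to 18S FPKM in gun4-1 and higher in gun5-1. The libraries were selected with oligo(dT), so these ratios describe the selected RNA and not all ribosomal RNA of the mitochondria. No spread exists for these ratios, since each genotype has 1 value.

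The 5S ribosomal RNA (rrn5, ATMG01380), a transcript of 118 bases, was listed at 0 in gun1-1, gun4-1 and gun5-1, against 792, 845 and 778 FPKM for Col-0 in the same tables, and was not tested. The pattern was common among short transcripts. Of the transcripts with a span of at most 150 bases and at least 100 FPKM in either group, 27 of 36, 27 of 41 and 29 of 40 were listed at 0 in 1 of the groups in the gun1-1, gun4-1 and gun5-1 tables. These zeros fell on the mutant in 17, 12 and 15 cases and on Col-0 in 10, 15 and 14 cases.

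ORF107A (ATMG00030, positions 11918 to 12241), an open reading frame without a known role, was the only other member above 20 FPKM. The identifier ATMG09390 has the same span, and how reads were shared between the 2 was not tested. A chromosome 2 stretch at 100% identity covers 46.9% of ORF107A. In TAIR10.1 the annotated rrn26 is longer than the span in the files, and ORF107A overlaps it on the opposite strand by 185 of its 324 bases. The 60 bases that cross the edge of that overlap are shown in the direction of rrn26, with capitals for the 30 bases that also belong to ORF107A.
rrn26, bases 156 to 215, MT:143751-143810, minus strand: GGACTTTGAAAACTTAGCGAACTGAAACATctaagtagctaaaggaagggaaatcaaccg
ORF107A stood at 68.9 FPKM in gun1-1 against 48.9 FPKM in Col-0, at 65.6 FPKM in gun4-1 against 52.4 FPKM in Col-0, and at 65.3 FPKM in gun5-1 against 48.0 FPKM in Col-0. In the authors' deposited table its log2 fold changes were 0.50 (SE 0.43), 0.32 (SE 0.44) and 0.44 (SE 0.46) in gun1-1, gun4-1 and gun5-1, with q of 0.141, 0.516 and 0.246, none of them called. The second-strand synthesis in the labels does not name a strand-marking step, so reads of ORF107A and of 26S ribosomal RNA in the overlap cannot be told apart.

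Respiratory chain messages were low, with no group above 4.41 FPKM. cox1 (ATMG01360, positions 349830 to 351413), the catalytic core of cytochrome c oxidase, was the only respiratory chain member called in any table. Its level was 1.57 FPKM in gun1-1 against 1.21 FPKM in Col-0, 3.31 FPKM in gun4-1 against 1.30 FPKM in Col-0, and 0.755 FPKM in gun5-1 against 1.19 FPKM in Col-0. The authors' deposited table gave a log2 fold change of 1.34 in gun4-1 (SE 0.51, q = 0.00192) and of 0.38 in gun1-1 (SE 0.58, q = 0.456), and did not test the gene in gun5-1.

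cox2 (ATMG00160, positions 40502 to 42628), the subunit of the same enzyme that receives electrons from cytochrome c, had 0.825 FPKM in gun1-1 against 1.87 FPKM in Col-0, 2.37 FPKM in gun4-1 against 2.02 FPKM in Col-0, and 0.641 FPKM in gun5-1 against 1.84 FPKM in Col-0. Its log2 fold changes in the authors' deposited table were -1.18 (SE 1.12), 0.23 (SE 0.73) and -1.52 (SE 1.19) in gun1-1, gun4-1 and gun5-1, with q of 0.191, 0.819 and 0.151. None was called. Whether cox1 and cox2 moved apart in gun1-1 was not tested.

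Of the complex I messages, nad9 (ATMG00070, positions 23663 to 24235) had 2.15 FPKM in gun1-1 against 1.76 FPKM in Col-0, 4.41 FPKM in gun4-1 against 1.89 FPKM in Col-0, and 2.28 FPKM in gun5-1 against 1.73 FPKM in Col-0. Its largest log2 fold change in the authors' deposited table was 1.22 in gun4-1 (SE 0.93, q = 0.225), which was not called. A stretch of nad5 (ATMG00060, positions 20571 to 22086), a proton-pumping subunit, had 1.73 FPKM in gun1-1 against 0.777 FPKM in Col-0, 2.25 FPKM in gun4-1 against 0.837 FPKM in Col-0, and 0.620 FPKM in gun5-1 against 0.765 FPKM in Col-0. The authors' deposited table called it in neither gun1-1 nor gun4-1 (q = 0.505 and 0.523) and did not test it in gun5-1. A stretch of nad1 (ATMG01120, positions 287917 to 289083) was listed at 1.93 FPKM in gun4-1 and at 0 in all other groups, untested. atp4 (ATMG00640, positions 188084 to 188662), the stator subunit b of the ATP synthase, had 1.82 FPKM in gun4-1 against 0.611 FPKM in Col-0, with a q of 0.465 in the authors' deposited table. In gun1-1 and gun5-1 atp4 stayed below 1 FPKM.

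The ribosomal protein genes rps3 and rpl16 lie in 1 span of the files (positions 25076 to 28733) that carries the identifiers ATMG00080 and ATMG00090, and the reference does not settle which identifier is which gene. Both encode proteins of the mitochondrial ribosome. ATMG00090 had 3.56 FPKM in gun1-1 against 2.96 FPKM in Col-0, 6.34 FPKM in gun4-1 against 3.19 FPKM in Col-0, and 2.56 FPKM in gun5-1 against 2.91 FPKM in Col-0. The authors' deposited table called it higher in gun4-1, by 0.99 on the log2 scale (SE 0.37, q = 0.00103), and not in gun1-1 (0.26, SE 0.44, q = 0.487) or gun5-1 (-0.19, SE 0.46, q = 0.67). ATMG00080 had 6.83 FPKM in gun1-1 against 4.26 FPKM in Col-0, 11.3 FPKM in gun4-1 against 4.58 FPKM in Col-0, and 3.60 FPKM in gun5-1 against 4.19 FPKM in Col-0. Its log2 fold change of 1.30 in gun4-1 (SE 0.75, q = 0.0599) fell short of the threshold in the authors' deposited table. Because the pair shares a span, the values are not independent.

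Among the remaining open reading frames, none was called. ORF149 (ATMG00660, positions 190104 to 190553) had 6.17 FPKM in gun1-1 against 9.39 FPKM in Col-0, 12.1 FPKM in gun4-1 against 10.1 FPKM in Col-0, and 7.74 FPKM in gun5-1 against 9.24 FPKM in Col-0. ATMG01000 (positions 260647 to 261461, matching ORF114 or ORF118) had 4.08 FPKM in gun1-1 against 0.407 FPKM in Col-0, 8.87 FPKM in gun4-1 against 0.439 FPKM in Col-0, and 4.94 FPKM in gun5-1 against 0.401 FPKM in Col-0. The log2 fold changes of ATMG01000 in the authors' deposited table were the largest of any tested member, 3.33 (SE 1.99), 4.34 (SE 2.40) and 3.62 (SE 2.13) in gun1-1, gun4-1 and gun5-1, yet their q values were 0.205, 0.301 and 0.197. It is also the 1 matched member above 1 FPKM with a full-length nuclear copy, so its reads could come from either genome. ATMG01000 is 1 of 3 identifiers in its span, with ATMG00990 (nad3) and ATMG01010, so their values are not independent. How reads were shared among these identifiers was not tested. ORF106F (ATMG01130) had 2.71 FPKM in gun1-1 against 0.552 FPKM in Col-0 and 3.87 FPKM in gun4-1 against 0.595 FPKM in Col-0, and was listed at 0 in gun5-1, against 0.544 FPKM in Col-0. Only gun4-1 was tested for it, with a q of 0.528 in the authors' deposited table. ORF240A (ATMG00690) had 1.56 FPKM in gun5-1 against 0.908 FPKM in Col-0 (q = 0.432 in the authors' deposited table). ORF111D, ATMG01180 and ATMG01400 were listed at 0 in Col-0, reached at most 1.42 FPKM in any mutant and were not tested.

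**Figure D3:**
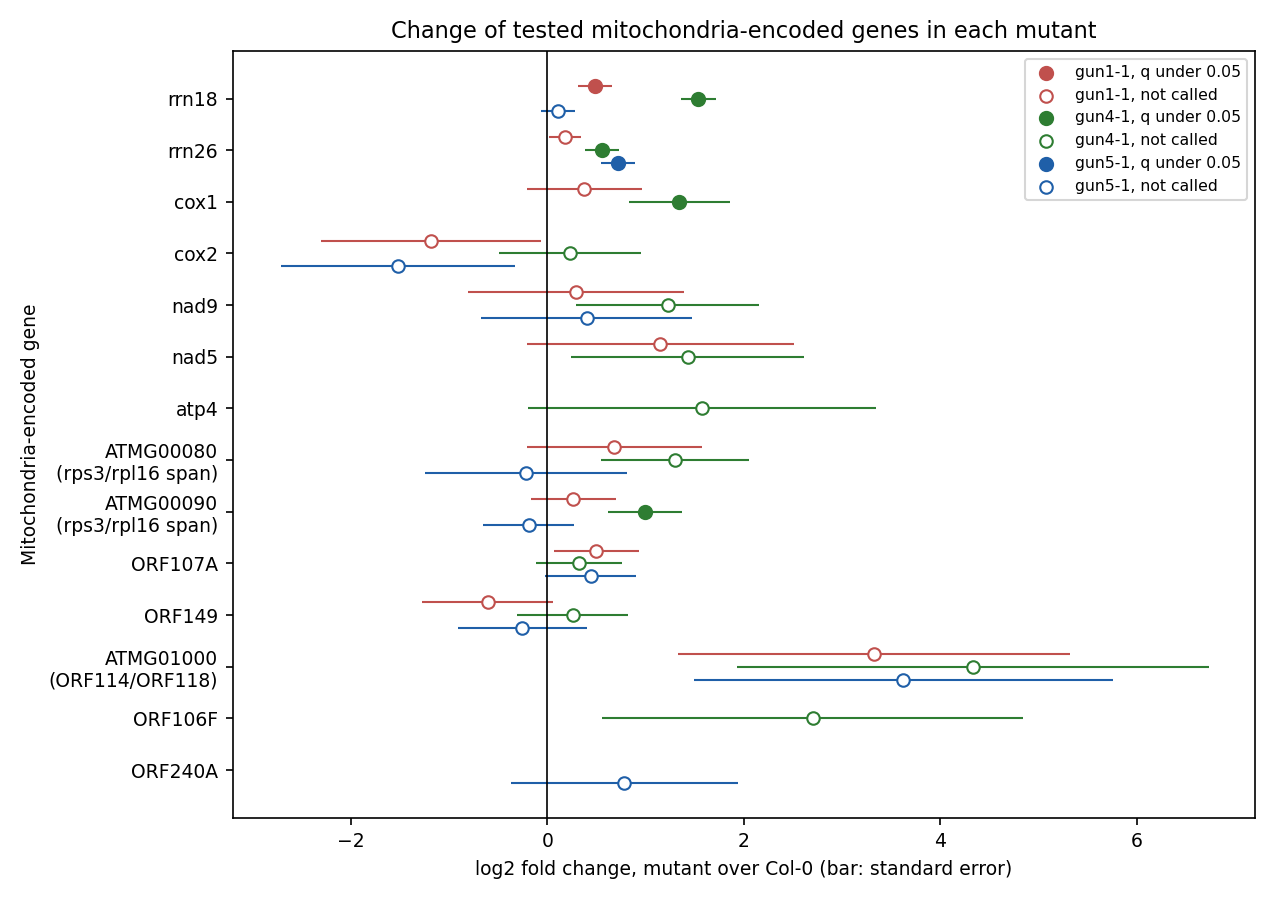
Log2 fold change (mutant over Col-0) of each tested mitochondria-encoded gene, with bars for the standard error derived from the deposited statistics and filled points for q under 0.05. Genes not tested in a table have no point for that mutant. The gun4-1 points for rrn18 (1.54), cox1 (1.34) and ATMG00090 (0.99) are filled, whereas the rightmost points, of ATMG01000, are open and have standard errors of 1.99 to 2.40.

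The mutants were then set against each other by the difference of their log2 fold changes, using a normal approximation on the deposited statistics and a Benjamini-Hochberg q computed over all genes tested in both tables. No permutation of samples can be made from group values. The errors were combined as if the tables were independent, which overstates the error of a difference because all tables share the Col-0 libraries. Each error was also the larger of the 2 implied by the deposited score and p-value. The normal quantile of the p-value was a median of 1.73 times the score in each table. Both choices make the contrasts strict, so a member that did not pass is not shown to be equal between mutants. The 18S ribosomal RNA was higher in gun4-1 than in gun1-1 by 1.05 on the log2 scale (SE 0.25, q = 0.000885), where 6.29% of 18175 genes differed. It was also higher in gun4-1 than in gun5-1 by 1.43 (SE 0.25, q = 5.13e-06), where 2.82% of 18062 genes differed. It was the only member to pass in these contrasts, of 11 and 9 members tested. Between gun5-1 and gun1-1, 0 of 9 members passed, against 1.74% of 18001 genes, and 1 had an unadjusted p under 0.05. That member was the 26S ribosomal RNA, with a difference of 0.54 (SE 0.24, q = 0.462). For cox1 the difference between gun4-1 and gun1-1 was 0.97 (SE 0.78, q = 0.737), so a larger change in gun4-1 was not shown. For ATMG00090 the differences were 0.73 (SE 0.57, q = 0.726) between gun4-1 and gun1-1 and 1.18 (SE 0.60, q = 0.536) between gun4-1 and gun5-1.

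The tables also hold 35 chromosome 2 genes that lie where a named mitochondrial gene has a copy at 99% identity or more. Any overlap with the copy counted, on either strand. Of these, 10 were listed at 0 in every group, and 7 were tested in gun1-1, 8 in gun4-1 and 6 in gun5-1. In gun4-1 seedlings 4 of the 8 were called higher in the authors' deposited table, against 8.21% of all tested genes. They were AT2G07671 (atp9) at 17.7 FPKM in gun4-1 against 9.53 FPKM in Col-0, AT2G07698 (atp1, subunit alpha of the ATP synthase head) at 2.40 against 0.954 FPKM, AT2G07725 (rpl5) at 1.52 against 0.447 FPKM, and AT2G07727 (cob, the cytochrome b of complex III) at 1.81 against 0.598 FPKM. Their log2 fold changes in the authors' deposited table were 0.89 (SE 0.37), 1.33 (SE 0.48), 1.76 (SE 0.83) and 1.60 (SE 0.50). The 4 not called in gun4-1 were AT2G07641 (nad7, -0.07), AT2G07715 (rpl2, -0.50), AT2G07783 (ccmFN1, -0.25) and AT2G07808 (nad2, 1.02, SE 1.53). AT2G07726, which overlaps the same copy of rpl5 as AT2G07725, had 3.68 FPKM in gun4-1 against 2.80 FPKM in Col-0 and was not tested there. In gun1-1 and gun5-1 Cuffdiff called 0 of the tested genes among these 35 in the authors' deposited table. AT2G07671 had 12.2 FPKM in gun1-1 against 8.86 FPKM in Col-0, and 8.45 FPKM in gun5-1 against 8.72 FPKM in Col-0. Whether these reads came from the mitochondrial or the nuclear copy cannot be told apart.

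Nuclear partners of these genes were mostly lower or not called. Of 46 nuclear genes of the respiratory chain, the authors' deposited table called 3 higher and 23 lower in gun1-1, 1 higher and 1 lower in gun4-1, and 1 higher and 16 lower (of 45 tested) in gun5-1. Over all tested genes, 18.8%, 8.21% and 16.4% were called higher and 14.9%, 5.88% and 13.1% lower in gun1-1, gun4-1 and gun5-1. Their median log2 fold changes were -0.29 in gun1-1, -0.01 in gun4-1 and -0.26 in gun5-1. For cytochrome c oxidase, the complex that holds cox1, 3, 0 and 3 of 8 nuclear genes were called lower in gun1-1, gun4-1 and gun5-1 in the authors' deposited table. The 8, and so the 46, include COX11 and COX17-1, which are assembly factors of that complex and not subunits. Neither was called in any mutant. COX5B-1, a subunit of that complex, had 86.3 FPKM in gun1-1 against 117 FPKM in Col-0, 119 FPKM in gun4-1 against 126 FPKM in Col-0, and 88.8 FPKM in gun5-1 against 115 FPKM in Col-0. COX6A fell to 527 FPKM in gun1-1, against 731 FPKM in Col-0. The 24 kDa subunit of complex I (CI24) was the exception called higher in each mutant, with log2 fold changes of 0.79, 0.37 and 0.39 in gun1-1, gun4-1 and gun5-1 in the authors' deposited table. QCR7-2 of complex III rose in gun1-1, to 6.20 FPKM against 1.34 FPKM in Col-0. CYTC-2, which encodes cytochrome c, fell in gun4-1 (-0.56) and gun5-1 (-0.89) in the authors' deposited table.

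Of 18 nuclear genes of mitochondrial gene expression or DNA upkeep, 16 were tested against Col-0 in each mutant. Of those, 5, 5 and 7 were called lower in gun1-1, gun4-1 and gun5-1 by the authors' Cuffdiff test, and none was called higher. Over all tested genes, 14.9%, 5.88% and 13.1% were called lower. The 18 include MSH1, RECA3, OSB1, POLIA and POLIB, which act in copying or maintaining mitochondrial DNA and not in gene expression. Each of these was tested, and none was called in any mutant. MTPNPASE, the polynucleotide phosphorylase that trims and degrades mitochondrial RNA, fell in each mutant. It had 1.94 FPKM in gun1-1 against 6.34 FPKM in Col-0, 3.61 FPKM in gun4-1 against 6.81 FPKM in Col-0, and 2.63 FPKM in gun5-1 against 6.23 FPKM in Col-0, or -1.71, -0.91 and -1.25 on the log2 scale in the authors' deposited table. RPOTMP, a phage-type RNA polymerase of mitochondria and plastids, fell by 0.93, 1.13 and 1.03 in gun1-1, gun4-1 and gun5-1 in the same tables. PMH1, a mitochondrial RNA helicase, fell by 1.13, 0.67 and 1.03. RPOTM, the RNA polymerase of mitochondria, fell to 8.18 FPKM in gun4-1 against 12.9 FPKM in Col-0, and to 7.40 FPKM in gun5-1 against 11.8 FPKM in Col-0. In gun1-1 the log2 fold change of RPOTM in the authors' deposited table was -0.28 (SE 0.21, q = 0.061), which was not called.

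The other organelle genome moved in both directions. Of 134 plastid-encoded genes, 39 of 58 tested were called lower in gun1-1, while 42 of 66 were called higher in gun4-1 and 49 of 65 higher in gun5-1 in the authors' deposited table, with median log2 fold changes of -1.67, 1.64 and 1.84. The mitochondria-encoded medians over tested genes were 0.38, 1.30 and 0.25. Summed FPKM of 6 root markers was 72.1 in gun1-1 against 95.3 in Col-0, 82.2 in gun4-1 against 102 in Col-0, and 74.4 in gun5-1 against 93.8 in Col-0, with 4, 3 and 3 of 6 called lower. Summed FPKM of 4 shoot markers was 71.8 in gun1-1 against 200.5 in Col-0, 328 in gun4-1 against 215 in Col-0, and 139 in gun5-1 against 197 in Col-0, with 1 higher and 1 lower call in gun1-1 and in gun5-1 and 2 higher calls in gun4-1. The epidermal marker PDF1 made up most of that sum, and the other 3 shoot markers summed to 17.1 FPKM in gun1-1 against 12.6 FPKM in Col-0, 15.6 FPKM in gun4-1 against 13.5 FPKM in Col-0, and 16.8 FPKM in gun5-1 against 12.4 FPKM in Col-0. Summed FPKM of 3 seed markers was 22.6 in gun1-1 against 102 in Col-0, 6.77 in gun4-1 against 110 in Col-0, and 16.6 in gun5-1 against 100.3 in Col-0, with 2 called lower in gun1-1 and 0 in the others. No marker of these lists was at 0 in a mutant. The part of tissue makeup and developmental stage in the mitochondrial values was not tested.

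**Figure D4:**
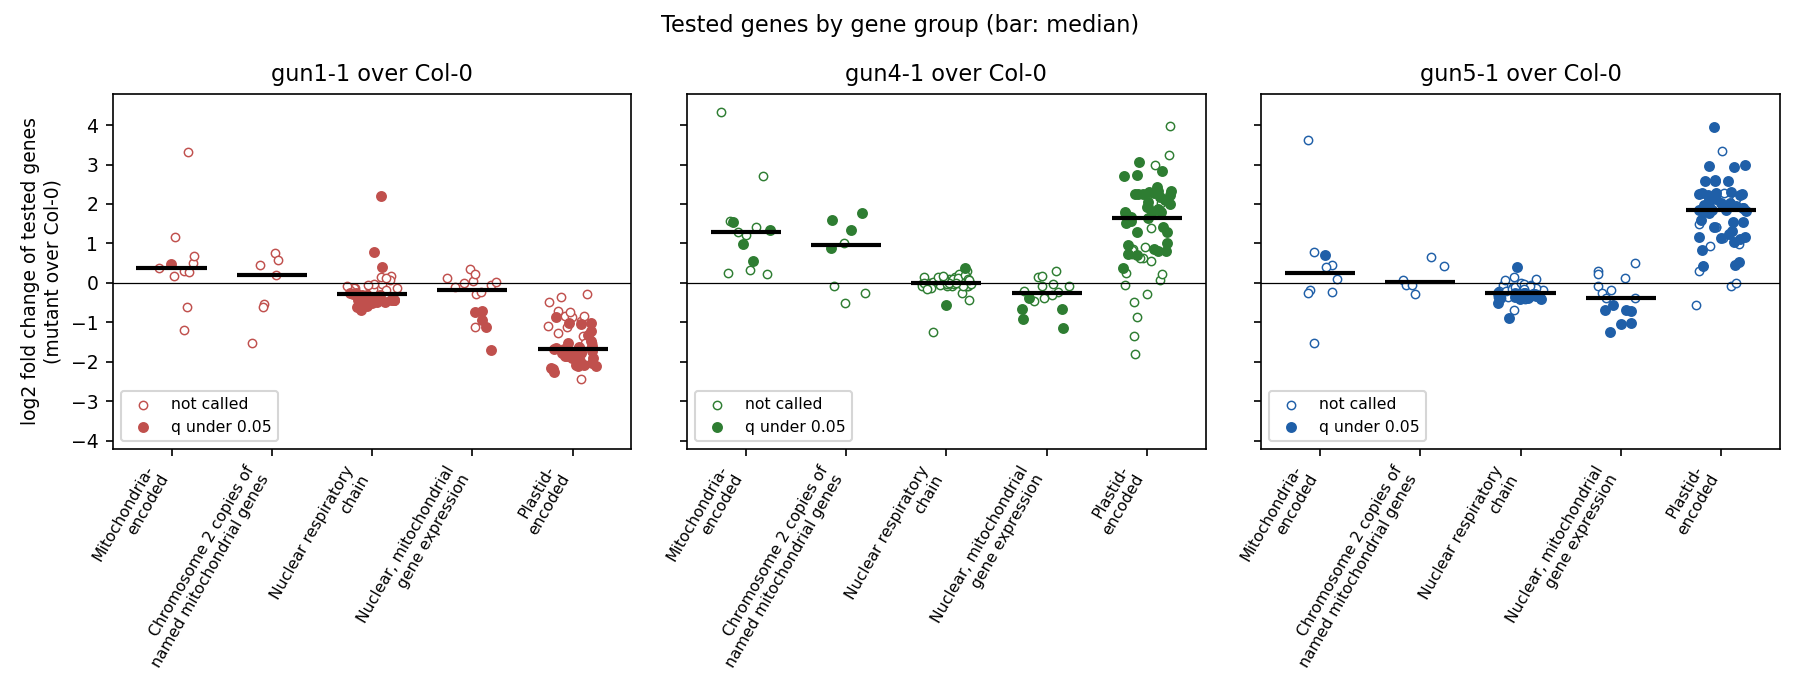
Log2 fold change (mutant over Col-0) of every tested gene in 5 gene groups, 1 panel per mutant, with filled points for q under 0.05 and black bars for the median of the tested genes. The mitochondria-encoded medians are 0.38, 1.30 and 0.25 in gun1-1, gun4-1 and gun5-1, and the plastid-encoded medians are -1.67, 1.64 and 1.84.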

How the data were processed

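Per the labels' protocols and the submitters' processing notes, RNA was selected with oligo(dT), cDNA was primed with random hexamers, and reads went through Trimmomatic, TopHat, Cufflinks and Cuffdiff. No versions and no genome build or annotation are given in the sources used here. The authors deposited group FPKM values, a log2 fold change (mutant over Col-0), the Cuffdiff test score, a p-value and a q-value for each of 64480 transcripts. FPKM per library and depth are unknown, so no interval is given. The labels give the 3 libraries of a genotype as separate samples, so the p-values measure the spread between these, which may be technical.

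Where a gene had several transcripts, the 1 with the highest mean FPKM stood for it, and calls are the authors' (status OK, q under 0.05). Standard errors are the larger of the 2 implied by the deposited score and p-value. The smallest p-value deposited is 5e-05. Differences between mutants used the root of the summed squared errors and were checked on simulated data. The simulated standard errors were smaller than those of most tested members other than ribosomal RNA, so the check does not cover those members. Nuclear spans equal TAIR10.1 for 99.9% of 25754 genes, whereas the mitochondrial sequence starts elsewhere, so members were named by matching span lengths and spacing (tolerance 3 bases) to RefSeq features. Of 161 members, 144 were named, helped by RefSeq notes. Spans without a match of their own were named from the features where matched neighbours placed them. These include ATMG00020, ATMG00060, ATMG00080, ATMG00090 and ATMG01000. The span of ATMG00020 was named by its overlap with rrn26. Nuclear copies came from blastn 2.17.0 alignments of RefSeq features other than transfer RNAs, and chromosome 2 copies lie between 3.2 and 3.55 Mb. Python 3.11.15, pandas 2.3.3 and scipy 1.17.1 were used. Named genes are every member tested in a table, all classified members with at least 1 FPKM, the top 5 remaining open reading frames by mean FPKM, and, among nuclear genes, those called with the largest changes and partners of a called gene. Members and lists were chosen with earlier results of these data known. Alternatives were other thresholds, FPKM minimums, a pseudocount of 1, centring, leaving out ribosomal RNA, and other standard errors.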

Additional observations from a re-analysis of the deposited data

Results flagged for a closer look

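The effect on the 18S ribosomal RNA (rrn18, ATMG01390) differed between mutants by the test of the difference itself, a normal approximation with a Benjamini-Hochberg q over all genes. Its log2 fold change against Col-0 was larger in gun4-1 than in gun1-1 by 1.05 (SE 0.25, q = 0.000885), and larger in gun4-1 than in gun5-1 by 1.43 (SE 0.25, q = 5.13e-06).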

How the results depend on the processing

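No paired analysis was possible because the tables hold 1 value per genotype, and for the same reason no library could be left out. Of the 60 alternative values computed for counts, medians and differences, 50 stayed within the limits used. The limits were 1.5 times for a count and the members' median standard error for a median. Some of the 50 could not change. Each member has 1 transcript and every tested member had at least 1 FPKM, so using every transcript or no FPKM minimum left the counts as they were. The limits for the gun1-1 and gun5-1 medians, 0.67 and 0.84, were wider than the medians themselves. Under an unadjusted p under 0.05, 2 members passed in gun1-1 and 2 in gun5-1, against 1 each under the q threshold. With no FPKM minimum the medians of gun1-1, gun4-1 and gun5-1 were all 0.00, against 0.38, 1.26 and 0.11, since genes at 0 in both groups enter with a log2 fold change of 0. Without ribosomal RNA the gun5-1 median turned to -0.19 over 9 genes. With the standard error taken from the p-value only, 0 members differed between gun4-1 and gun1-1 and 0 between gun4-1 and gun5-1, because the 18S ribosomal RNA, at the smallest deposited p in gun4-1, then has no standard error and is not tested. At q under 0.01, an alternative chosen after seeing the data, 10 respiratory chain genes of the nucleus were called in gun5-1, and in the chromosome 2 window, of 170 genes, 0, 3 and 0 were called in gun1-1, gun4-1 and gun5-1, against 2, 5 and 1 at q under 0.05. All 68 alternative log2 values of single tested genes moved by less than their standard error. Their signs could not have turned. A pseudocount keeps the sign of a log2 value, and the nuclear medians used for centring were smaller than any of these values. Levels near 1 FPKM and an unknown depth limit what the respiratory chain messages can show.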
